A study of Mus musculus with 6 samples.

Results

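The 45 genes described here encode the mouse receptors for serotonin, noradrenaline and adrenaline, dopamine and acetylcholine. They were chosen by name: every protein-coding gene whose symbol follows the pattern of a serotonin receptor (Htr), an alpha or beta adrenergic receptor (Adra, Adrb), a dopamine receptor (Drd), a muscarinic acetylcholine receptor (Chrm) or an alpha or beta subunit of the nicotinic acetylcholine receptor (Chrn). The pattern took 14 serotonin, 8 adrenergic, 5 dopamine, 5 muscarinic and 13 nicotinic genes out of 54532 genes in the files, of which 21995 are protein-coding. The receptor gene Adra2c and the delta, epsilon and gamma nicotinic subunits lie outside the naming pattern and are given with the pathway genes.

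The tissue was whole flash-frozen cervical cord from 6 C57BL/6 mice, and each mouse gave 1 RNA library. In the imiquimod group, 3 mice received 50 mg of 5% imiquimod cream, an agonist of Tlr7, on shaved skin at the nape daily for 2 days, which gives a psoriasis-like dermatitis. In the vehicle group, 3 mice received the same amount of cream without the drug. The comparison asks how transcripts of the cord that serves the neck skin differ when that skin is inflamed.

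Serotonin and noradrenaline reach the spinal cord in axons that descend from the brainstem, and dopamine arrives mostly from the hypothalamus, so the cord holds the receptors but few of the cell bodies that make these transmitters. Acetylcholine is made in the cord itself, by motor neurons and by interneurons. Most of these receptors act through G proteins: those coupled to Gi lower cyclic AMP and tend to silence neurons, those coupled to Gs raise cyclic AMP, and those coupled to Gq activate phospholipase C. The exceptions are the type 3 serotonin receptors and the nicotinic receptors, which are ion channels that the transmitter opens directly. Descending noradrenaline and serotonin are best known in the cord for setting the gain of pain, itch and motor circuits.

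The promoters of the Gi-coupled receptor Htr1a and the Gq-coupled receptor Htr2c are printed because these are called members that moved in opposite directions, and because they show the reference sequence in front of each. Both are on the plus strand of GRCm38.p6 in RefSeq, as 250 bases before and 50 bases after the start, chr13:105443443-105443742 for Htr1a and chrX:146962263-146962562 for Htr2c. Capitals mark the only match to a searched motif, GGGTG, which is CACCC on the other strand.
Htr1a: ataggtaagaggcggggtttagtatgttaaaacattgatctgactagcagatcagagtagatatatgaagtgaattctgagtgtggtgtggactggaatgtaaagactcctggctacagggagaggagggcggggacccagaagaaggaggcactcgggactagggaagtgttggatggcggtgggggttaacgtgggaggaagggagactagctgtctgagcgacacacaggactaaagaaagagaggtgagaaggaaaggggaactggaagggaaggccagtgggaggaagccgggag
Htr2c: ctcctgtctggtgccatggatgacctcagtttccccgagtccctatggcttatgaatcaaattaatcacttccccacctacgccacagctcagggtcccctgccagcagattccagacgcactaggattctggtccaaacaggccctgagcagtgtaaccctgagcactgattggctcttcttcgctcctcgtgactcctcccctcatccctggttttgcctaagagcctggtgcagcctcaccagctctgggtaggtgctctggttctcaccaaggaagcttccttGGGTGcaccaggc
RefSeq promoters were found for 34 of the 45 members, with 39 promoters in all, and Htr3a had no entry. On both strands, CACCC, the letters bound by Sp and Klf factors, was present in 28 of the 39, and in 57.5% of all 32851 promoters of the same length. CACGTG, the E-box, was in 2 of the 39 (Adra2a and Chrna7) and in 7.15% of all promoters. TGACGTCA, the cyclic AMP response element, was in 0 of the 39 and in 1.79% of all. TTCNNNGAA, the Stat motif, was in 4 of the 39, which belong to the 3 genes Adra2b, Chrna5 and Drd3, and in 8.3% of all. The interferon-stimulated response element was in 1 of the 39 (Chrm5) and in 3.44% of all. The searched motifs do not contain each other, and a match describes the letters and not a bound factor.

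The values are FPKM (fragments scaled to exon length in kb and to the size of the library), so levels may be set beside each other between genes. Fragments recovered from the FPKM numbered 21242413 to 23200993 per imiquimod library and 18174411 to 20672881 per vehicle library, without overlap (two-sided exact permutation test, p = 0.1, which is the lowest value possible with 3 mice a group). A gene with 2 kb of exon and 3 fragments has 0.0639 to 0.0863 FPKM at these depths. Imiquimod replicates 1 and 3 stood apart from the other 4 libraries in Hox genes that mark the more caudal neck segments. Hoxc8, a gene of the lower cervical and thoracic cord, had 1.52, 11.9 and 1.63 FPKM in imiquimod replicates 1, 2 and 3, against 16.9, 16.6 and 15.0 FPKM in vehicle replicates 1, 2 and 3. Hoxb9 had 8.27, 20.1 and 8.31 FPKM in imiquimod cords, against 22.3, 22.2 and 18.0 FPKM in vehicle cords, whereas Hoxb4, which is also active further rostrally, had 7.96, 4.15 and 6.84 FPKM in imiquimod cords, against 6.496, 6.46 and 7.39 FPKM in vehicle cords. The Hox genes were looked at after the data had been seen. A difference in the segments taken and an effect of imiquimod cannot be told apart in replicates 1 and 3, so results are also given for imiquimod replicate 2 alone against the vehicle libraries. The tissue carried neuronal transcripts throughout, with 13 of 13 neuron markers measured, while Ttr, a choroid plexus gene, stayed at 0.0699 to 0.236 FPKM.

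Of the 45 receptor genes, 30 reached a mean of 0.5 FPKM in at least 1 group and were tested, and 3 of these 30 (10%) were called, all of them serotonin receptors. Htr1a and Htr3a were higher in imiquimod cords and Htr2c was lower. Of the 30 members 2 (6.67%) were higher and 1 (3.33%) was lower, while of all 16513 genes tested 14.1% were called, 8.74% higher and 5.34% lower. The members' shares are thus below the background in each direction and give no result about the receptors as a class. The groups did not overlap for 6 of 30 members (20%), which were Htr2c, Htr1a, Adrb1, Htr3a, Adra1a and Chrna2, against 37.9% of all genes tested. The median log2 difference, imiquimod minus vehicle, was -0.011 over the 30 members, of which 14 were above and 16 below 0, and -0.0061 over all genes. A call means a Benjamini-Hochberg adjusted p under 0.05 over all genes, from limma-trend applied to log2(FPKM + 0.1). Without adjustment, p was under 0.05 for 4 members, the 3 called and Adra1a. In whole tissue, fewer cells of a type and less RNA per cell cannot be told apart.

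**Figure D1:**
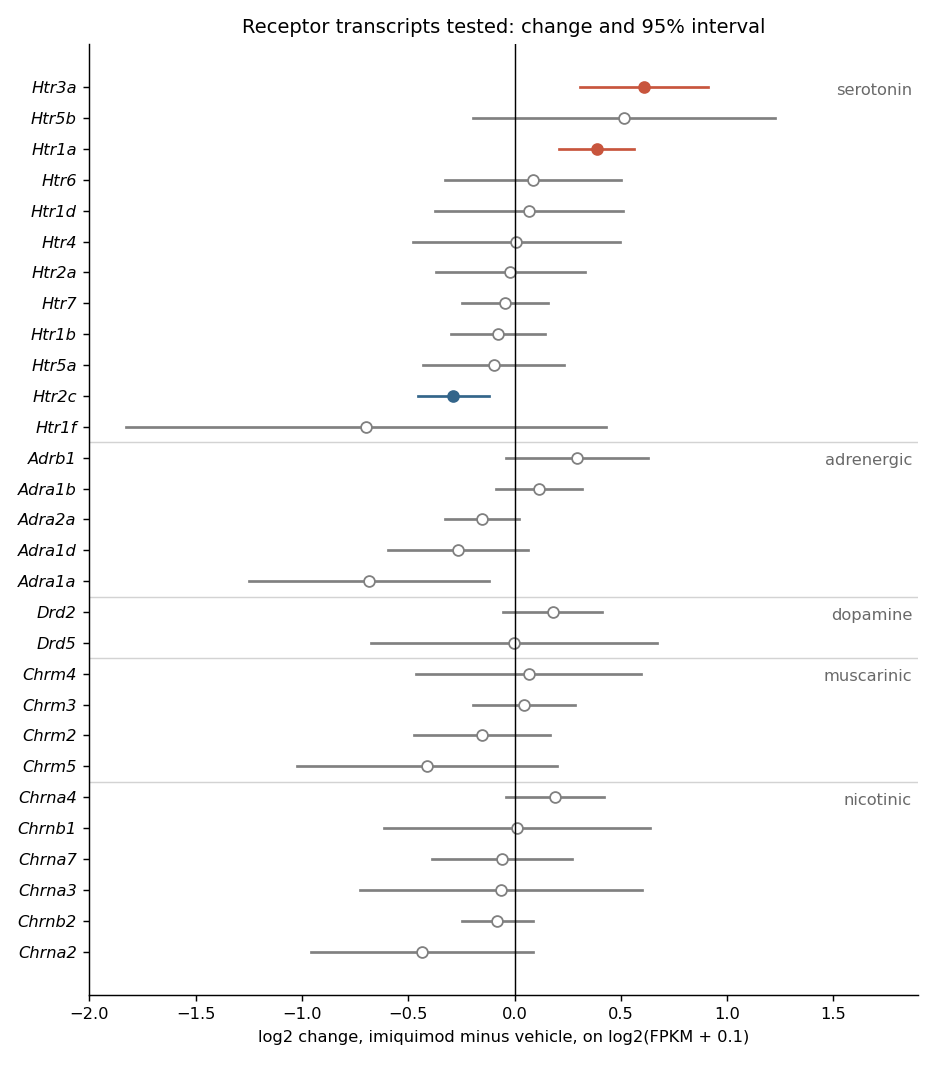
Log2 difference, imiquimod minus vehicle, on the log2(FPKM + 0.1) scale (x axis) with its 95% interval for the tested receptor genes reported here (y axis), grouped by transmitter. Filled points are the 3 called genes, Htr3a and Htr1a at 0.61 and 0.39 and Htr2c at -0.29, and open points are genes not called, whose intervals are widest for genes of low level such as Htr1f.

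Htr1a, the Gi-coupled receptor that serves as autoreceptor on serotonin neurons and as an inhibitory receptor on their targets, had 4.33, 4.35 and 4.38 FPKM in the 3 imiquimod cords, against 3.28, 3.17 and 3.48 FPKM in the 3 vehicle cords. All 3 imiquimod values lay above all 3 vehicle values, and they were nearly equal. The means were 4.35 ± 0.0277 FPKM in imiquimod and 3.31 ± 0.157 FPKM in vehicle cords (SD, n = 3 each), a log2 difference of 0.39 ± 0.07 (SE; limma adjusted p = 0.0188). It rested on 400 to 461 fragments per imiquimod library and 247 to 305 per vehicle library. Htr1a lies on chr13:105443639-105448122 of mm10, plus strand, and shares no exon base with another gene. The call held in 12 of 18 alternatives, with adjusted p between 0.0151 and 0.15. It ended without imiquimod replicate 3 (adjusted p = 0.0542) and without any 1 of vehicle replicates 1, 2 and 3 (adjusted p = 0.0826, 0.0795 and 0.0507). A block for the replicate number ended it too (limma adjusted p = 0.0633). In imiquimod replicate 2 alone the log2 difference was again 0.39 (adjusted p = 0.15).

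Htr3a, the subunit from which type 3 serotonin channels are built and which can form a channel by itself, had 2.93, 2.75 and 3.27 FPKM in imiquimod cords, against 1.74, 1.82 and 2.23 FPKM in vehicle cords. The highest vehicle cord stayed under the lowest imiquimod cord. The means were 2.98 ± 0.266 FPKM in imiquimod and 1.93 ± 0.266 FPKM in vehicle cords (SD, n = 3 each), a log2 difference of 0.61 ± 0.13 (SE; limma adjusted p = 0.0248), on 126 to 160 fragments per imiquimod library and 64 to 91 per vehicle library. Htr3a lies on chr9:48899213-48911099, minus strand, next to Htr3b on chr9:48935008-48964990. Htr3b, which forms channels only together with Htr3a, had 1, 0 and 3 fragments in imiquimod and 4, 2 and 1 in vehicle libraries. The call on Htr3a held in 11 of 18 alternatives, with adjusted p between 0.0244 and 0.252. It ended without imiquimod replicate 1 or 3 (adjusted p = 0.0605 and 0.0737) and without vehicle replicate 1 or 2 (0.0946 and 0.0871). It also ended with no filter on low values (0.0516) and after a trend with exon length and GC content was removed (0.058). In imiquimod replicate 2 alone the log2 difference was 0.50 (adjusted p = 0.252).

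Transcripts of sensory ganglion neurons, a cell type known to carry Htr3a, were compared because dorsal roots can be left on the cord. Of 10 such markers 4 were tested and 1 was higher in imiquimod cords. The list summed to 4.85 to 5.88 FPKM in imiquimod and 3.72 to 4.77 FPKM in vehicle cords. Its defining nociceptor channel Scn10a stood at 0.00561 to 0.0482 FPKM in imiquimod and 0.0355 to 0.0650 FPKM in vehicle cords, and Mrgprd was at 0 in all imiquimod libraries and in 2 of 3 vehicle libraries. Of 7 tested markers of excitatory dorsal horn neurons 1 was higher (Tac2, the neurokinin B precursor), with sums of 105.2 to 123.4 FPKM in imiquimod and 92.1 to 103.3 FPKM in vehicle cords. The median log2 difference of the 7 was 0.23. Tlx3, Nmu, Cck and Ebf2 differed by 0.34, 0.29, 0.23 and 0.20 and Lmx1b by -0.02, none of them called. Without Tac2 the sums, in which Slc17a6 was the largest term, overlapped, at 75.5 to 86.5 FPKM in imiquimod and 74.7 to 85.0 FPKM in vehicle cords. Slc17a6, a glutamate transporter gene, went the other way and averaged 33.3 FPKM in imiquimod and 39.2 FPKM in vehicle cords without overlap (log2 difference -0.23, limma adjusted p = 0.0594). The part of sensory ganglion or dorsal horn neurons in the Htr3a difference was not tested.

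Htr2c, a Gq-coupled receptor whose transcript is edited in neurons, had 8.53, 8.60 and 7.87 FPKM in imiquimod cords, against 10.3, 9.66 and 10.6 FPKM in vehicle cords. All imiquimod values lay below all vehicle values. The means were 8.33 ± 0.404 FPKM in imiquimod and 10.2 ± 0.484 FPKM in vehicle cords (SD, n = 3 each), a log2 difference of -0.29 ± 0.07 (SE; limma adjusted p = 0.0388). With 1566 to 1933 fragments per library it was the most deeply counted member. Htr2c lies on chrX:146962513-147197277, plus strand, and shares no exon base with another gene. Its call held in 9 of 18 alternatives, with adjusted p between 0.0257 and 0.193. It ended without imiquimod replicate 1 or 3 (adjusted p = 0.0592 and 0.0986) and without vehicle replicate 1, 2 or 3 (0.145, 0.0793 and 0.137). It also ended with no filter on low values (0.0605), after the trend with length and GC was removed (0.0835) and with the replicate block (0.104). In imiquimod replicate 2 alone the log2 difference was -0.24 (adjusted p = 0.193). Of 13 general neuron markers 2 were called lower (Rbfox3 and Elavl3, log2 differences -0.37 and -0.39) and 0 higher. The median log2 difference of the list was -0.26. Only Syt1 and Elavl4 were above 0, at 0.20 and 0.15, and were not called. The list summed to 1552 to 2018 FPKM in imiquimod and 2184 to 2295 FPKM in vehicle cords, most of it from abundant genes such as Nefl and Uchl1. Their part in the Htr2c difference was not tested.

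**Figure D2:**
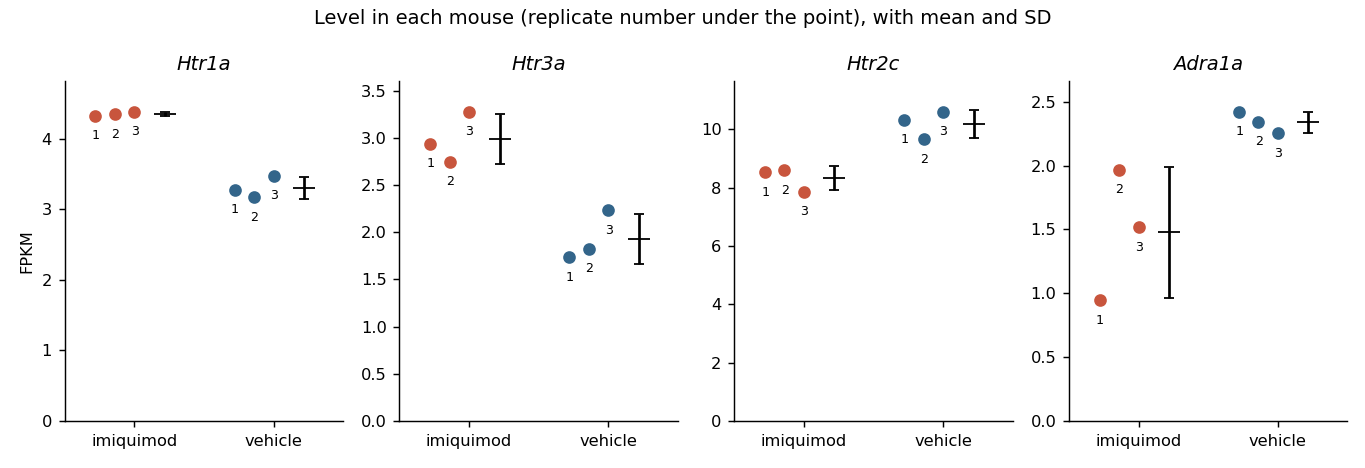
FPKM (y axis, from 0) of the 3 called receptors and of Adra1a in each mouse, imiquimod left and vehicle right, with the replicate number under each point and the mean and SD (n = 3) beside the points. Htr1a and Htr3a sit higher in every imiquimod cord, Htr2c sits lower, and Adra1a spreads from 0.945 to 1.97 FPKM within the imiquimod group.

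The other serotonin receptors kept overlapping groups. Htr7, a Gs-coupled receptor, had 9.52, 9.68 and 8.12 FPKM in imiquimod cords, against 9.82, 9.22 and 9.09 FPKM in vehicle cords (log2 difference -0.05 ± 0.09, limma adjusted p = 0.76). It was the highest serotonin receptor in imiquimod cords at 24.9% of the family's summed FPKM, with Htr2c at 22.8%, and the second in vehicle cords at 25.6%, with Htr2c first at 27.8%. The ranges of these receptors over the libraries of a group overlapped in both groups, although within each single library Htr7 was above Htr2c in all 3 imiquimod cords and below it in all 3 vehicle cords. Htr2a, the other Gq-coupled receptor above the minimum, averaged 3.49 ± 0.77 FPKM in imiquimod and 3.49 ± 0.0885 FPKM in vehicle cords. Htr1b, a Gi-coupled receptor of axon terminals, averaged 2.40 ± 0.0944 FPKM in imiquimod and 2.54 ± 0.156 FPKM in vehicle cords, and 18% of its exon bases lie opposite another gene, whose reads may not be separable.

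Lower in the order stood Htr6, a Gs-coupled receptor, at 1.59 ± 0.282 FPKM in imiquimod and 1.48 ± 0.199 FPKM in vehicle cords, and Htr5a, a Gi-coupled receptor, at 1.39 ± 0.11 FPKM in imiquimod and 1.5 ± 0.186 FPKM in vehicle cords. Htr1d, a relative of Htr1b, averaged 0.899 ± 0.138 FPKM in imiquimod and 0.850 ± 0.0927 FPKM in vehicle cords, and Htr4, a Gs-coupled receptor, averaged 0.714 ± 0.095 FPKM in imiquimod and 0.708 ± 0.0868 FPKM in vehicle cords. Htr1f, which is Gi-coupled, had 10, 40 and 20 fragments in imiquimod and 50, 25 and 22 in vehicle libraries, so that its log2 difference of -0.70 had an SE of 0.48 (limma adjusted p = 0.367). Htr5b, a receptor that rodents keep and humans have lost, averaged 0.738 ± 0.225 FPKM in imiquimod and 0.482 ± 0.128 FPKM in vehicle cords (log2 difference 0.52 ± 0.30, adjusted p = 0.293). Htr2b, the Gq-coupled receptor of heart valves and smooth muscle, was lowest in vehicle cords and had 0.0228, 0.0630 and 0.140 FPKM in imiquimod cords, against 0.0265, 0.0540 and 0 FPKM in vehicle cords. Htr3b was lowest in imiquimod cords, with 0.0201, 0 and 0.0530 FPKM there, against 0.0937, 0.0477 and 0.0212 FPKM in vehicle cords.

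**Figure D3:**
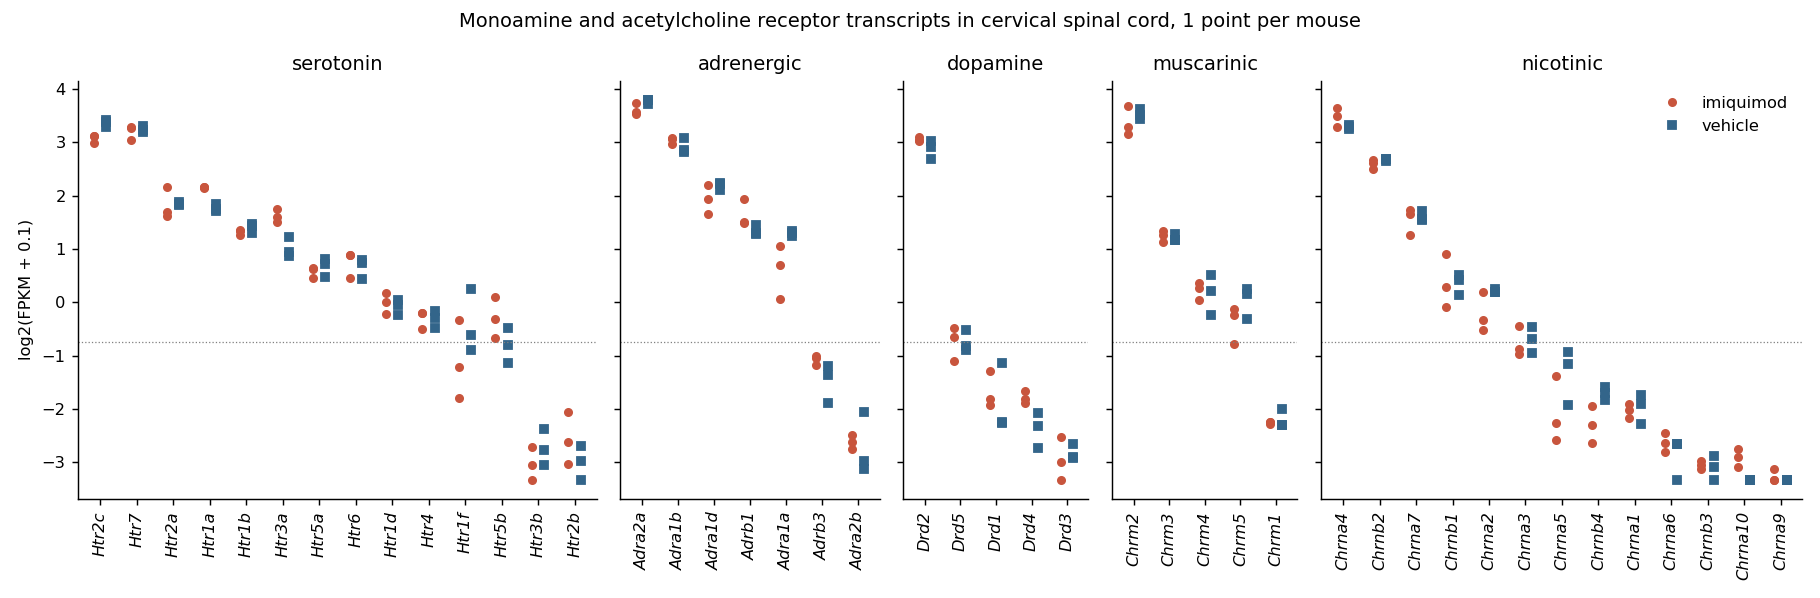
Level of the receptor genes reported here on the log2(FPKM + 0.1) scale (y axis), 1 point per mouse, with imiquimod circles left of vehicle squares and genes ordered by vehicle mean within each family. The dotted line marks 0.5 FPKM, and in each family 1 or 2 genes, such as Adra2a, Drd2, Chrm2 and Chrna4, stand well above the rest in both groups.

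No adrenergic receptor was called among 6 tested by limma or by voom on the recovered fragments, and 1 of the 6, Adra1a, had an unadjusted p under 0.05 in both. Adra2a, the Gi-coupled receptor through which clonidine-like drugs relieve pain in the cord, led the family with 11.8, 11.5 and 13.2 FPKM in imiquimod cords, against 13.7, 12.97 and 13.7 FPKM in vehicle cords. Imiquimod replicate 3 fell among the vehicle cords, and the log2 difference was -0.15 ± 0.07 (limma adjusted p = 0.213). Adra2a made up 40.4% of the family's summed FPKM in imiquimod and 43.1% in vehicle cords. Adra1b, a Gq-coupled receptor, was second at 8.10 ± 0.312 FPKM in imiquimod and 7.48 ± 0.712 FPKM in vehicle cords. Adra1d, also Gq-coupled, averaged 3.74 ± 0.718 FPKM in imiquimod and 4.46 ± 0.205 FPKM in vehicle cords (log2 difference -0.26 ± 0.14, adjusted p = 0.25).

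Adra1a, the third Gq-coupled adrenergic receptor, had 0.945, 1.97 and 1.52 FPKM in imiquimod cords, against 2.42, 2.35 and 2.26 FPKM in vehicle cords. All imiquimod values lay below all vehicle values, but imiquimod replicate 2 was near them. The log2 difference was -0.69 ± 0.24 (SE; limma adjusted p = 0.105, between 0.0314 and 0.311 over 18 alternatives). Adra1a was called in 1 of the 18, the fit without imiquimod replicate 2, at -0.91 (adjusted p = 0.0314), and in imiquimod replicate 2 alone the log2 difference was -0.24. It rested on 170, 384 and 311 fragments in imiquimod and 374, 356 and 385 in vehicle libraries. The gene lies on chr14:66635251-66771168, on the same chromosome as Chrna2 (chr14:66135039-66152948).

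**Figure D4:**
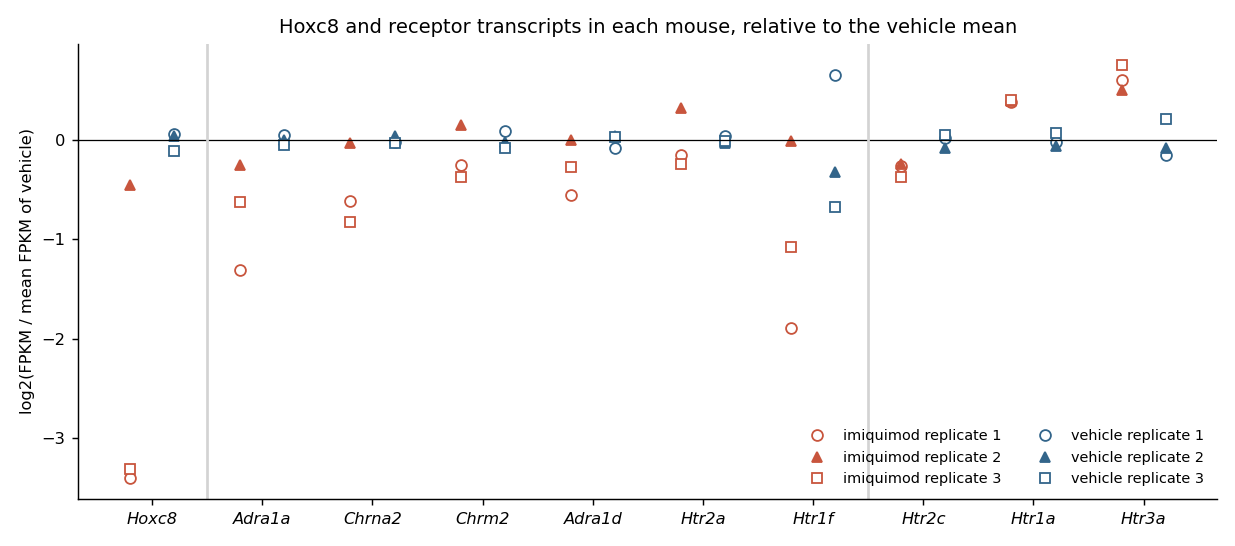
Level in each library divided by the vehicle mean, on a log2 scale (y axis), for Hoxc8, 6 receptor genes with imiquimod replicates 1 and 3 below the other libraries (Htr2c shares this order), and the 3 called receptors (x axis). Hoxc8 is at 0.0942 and 0.1005 of the vehicle mean in imiquimod replicates 1 and 3 and at 0.733 in replicate 2, while Htr1a, Htr3a and Htr2c have all 3 imiquimod libraries on the same side of the vehicle libraries.

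The order seen in Hoxc8, with imiquimod replicates 1 and 3 below every vehicle library and below imiquimod replicate 2, was shared by 7 of 30 tested members (23.3%) and by 17.7% of all genes tested. These members were Adra1d, Adra1a, Chrm2, Chrna2, Htr2c, Htr2a and Htr1f. The opposite order, with both replicates above, was found in 4 of 30 members (13.3%, Adrb1, Htr3a and Htr5b among them) and likewise in 17.7% of all genes. The part of segment level in these differences was not tested.

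The beta adrenergic receptors are Gs-coupled. Adrb1, the main cardiac and cortical type, averaged 3.05 ± 0.579 FPKM in imiquimod and 2.44 ± 0.163 FPKM in vehicle cords. Its groups did not overlap, yet the log2 difference of 0.29 ± 0.14 was not called (limma adjusted p = 0.212). Adrb3, the fat cell type, stayed under the minimum with 84 fragments over the imiquimod and 49 over the vehicle libraries, and 24.9% of its exon bases lie opposite another gene. Adra2b, the lowest of the family, had 0.0483, 0.0780 and 0.0637 FPKM in imiquimod cords, against 0.0282, 0.0143 and 0.140 FPKM in vehicle cords.

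Among the dopamine receptors Drd2 alone carried most of the signal. Drd2, which is Gi-coupled and the target of antipsychotic drugs, had 7.98, 8.13 and 8.50 FPKM in imiquimod cords, against 6.32, 7.43 and 8.05 FPKM in vehicle cords. The groups overlapped by 1 vehicle cord, and the log2 difference was 0.18 ± 0.10 (limma adjusted p = 0.264). Drd2 accounted for 89.6 ± 1.72% of the summed dopamine receptor FPKM in imiquimod and 89.9 ± 2.31% in vehicle cords (SD, n = 3 each). Drd5, a Gs-coupled receptor and the only other one tested, averaged 0.507 ± 0.128 FPKM in imiquimod and 0.501 ± 0.0867 FPKM in vehicle cords, but 48.6% of its exon bases lie opposite another gene. Neither was called by limma or voom, and neither had an unadjusted p under 0.05. Drd1, the other Gs-coupled one, averaged 0.219 FPKM in imiquimod and 0.191 FPKM in vehicle cords. Drd4, a Gi-coupled receptor, had 13, 13 and 17 fragments in imiquimod and 6, 3 and 9 in vehicle libraries, a depth-corrected ratio of 1.96 (95% interval 1.11 to 3.62, from the counts alone). With no filter on low values it was not called (log2 difference 0.59 ± 0.27, limma adjusted p = 0.317). Drd3, the lowest, had 0, 0.0261 and 0.0747 FPKM in imiquimod cords, against 0.0330, 0.0336 and 0.0597 FPKM in vehicle cords, which is at most 3 fragments in a library.

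Of the muscarinic receptors 4 were tested and 0 were called by limma or voom, and 0 had an unadjusted p under 0.05. Chrm2, the Gi-coupled receptor that acts as autoreceptor on cholinergic terminals, had 9.61, 12.7 and 8.83 FPKM in imiquimod cords, against 12.2, 11.3 and 10.8 FPKM in vehicle cords. Imiquimod replicate 2 was the highest of all 6 libraries and replicates 1 and 3 the lowest, and the log2 difference was -0.15 ± 0.14 (limma adjusted p = 0.49). Chrm2 made up 71.1 ± 3.68% of the family's summed FPKM in imiquimod and 72.6 ± 1.99% in vehicle cords. Chrm3, which is Gq-coupled and drives gland secretion and smooth muscle, averaged 2.27 ± 0.181 FPKM in imiquimod and 2.20 ± 0.0996 FPKM in vehicle cords. Chrm4, a Gi-coupled receptor, averaged 1.08 ± 0.13 FPKM in imiquimod and 1.04 ± 0.287 FPKM in vehicle cords, and Chrm5, a Gq-coupled one, averaged 0.681 ± 0.172 FPKM in imiquimod and 0.935 ± 0.206 FPKM in vehicle cords (log2 difference -0.41 ± 0.26, adjusted p = 0.329). Chrm1, the main Gq-coupled type of the forebrain, was lowest, with 0.105, 0.110 and 0.112 FPKM in imiquimod cords, against 0.105, 0.151 and 0.102 FPKM in vehicle cords.

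Motor neurons and cholinergic interneurons, the cells that release acetylcholine in the cord, had 5 of 10 tested markers called lower in imiquimod cords and 0 higher, and the list summed to 86.0 to 130.2 FPKM in imiquimod and 142.8 to 152 FPKM in vehicle cords. The lowest sums were in imiquimod replicates 3 and 1. The part of these cells in the levels of Chrm2, Chrna2, Adra1a and Htr2a, which were also lower in replicates 1 and 3, was not tested.

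Of the nicotinic subunits 6 of 13 were tested and 0 were called by limma or voom, and 0 had an unadjusted p under 0.05 with limma (1 in voom with quality weights). Chrna4, which with Chrnb2 forms the most common nicotinic receptor of the brain, had 9.66, 12.4 and 11.2 FPKM in imiquimod cords, against 9.64, 9.91 and 9.45 FPKM in vehicle cords. Imiquimod replicate 1 lay among the vehicle cords, and the log2 difference was 0.19 ± 0.10 (limma adjusted p = 0.238). Chrnb2 averaged 5.96 ± 0.355 FPKM in imiquimod and 6.30 ± 0.0972 FPKM in vehicle cords, with 16.3% of its exon bases opposite Adar, an RNA-editing enzyme gene. These subunits made up 48.3% and 26.1% of the summed nicotinic FPKM in imiquimod cords, and 43.1% and 28.1% in vehicle cords. Chrna7, which forms channels by itself, averaged 2.85 ± 0.493 FPKM in imiquimod and 2.95 ± 0.18 FPKM in vehicle cords.

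Chrnb1, a subunit of the muscle receptor, averaged 1.24 ± 0.476 FPKM in imiquimod and 1.19 ± 0.162 FPKM in vehicle cords, while its muscle partner Chrna1 averaged 0.145 FPKM in imiquimod and 0.157 FPKM in vehicle cords. Skeletal muscle markers stayed low in both groups: 2 of 9 were tested, 0 were called, and the list summed to 2.33 to 3.12 FPKM in imiquimod and 2.15 to 3.01 FPKM in vehicle cords. Chrna2, the subunit known from Renshaw cells of the ventral horn, had 0.692, 1.04 and 0.596 FPKM in imiquimod cords, against 1.04, 1.09 and 1.04 FPKM in vehicle cords. Imiquimod replicate 2 was level with the lowest vehicle cords, and the log2 difference was -0.44 ± 0.22 (limma adjusted p = 0.233).

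Chrna3, Chrna5 and Chrnb4, the subunits of autonomic ganglia, lie beside each other on chr9:54980880-55048779. Chrna3 was the only one tested and averaged 0.497 ± 0.122 FPKM in imiquimod and 0.521 ± 0.102 FPKM in vehicle cords. Chrna5 had 7, 20 and 5 fragments in imiquimod and 9, 19 and 26 in vehicle libraries, and Chrnb4 had 8, 5 and 14 in imiquimod and 12, 15 and 15 in vehicle libraries. With no filter on low values neither was called (log2 difference -0.73 ± 0.44, adjusted p = 0.45, for Chrna5 and -0.58 ± 0.28, adjusted p = 0.338, for Chrnb4, both by limma). Chrna6 and Chrnb3, known from dopamine neurons, are neighbours on chromosome 8 and had 12 and 9 fragments over the imiquimod libraries, against 6 and 6 over the vehicle libraries. Chrna10 had 1, 2 and 3 fragments in imiquimod and 0 in every vehicle library, and 39% of its exon bases lie opposite Art1. Chrna9, its partner in cochlear hair cells and the lowest of the family, had 0, 0.0148 and 0 FPKM in imiquimod cords, against 0 FPKM in every vehicle cord, which is 1 fragment in all.

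Taken by signalling class, the 7 tested Gq-coupled receptors had a median log2 difference of -0.26 with 1 called lower (Htr2c), 2 above and 5 below 0. Their FPKM summed to 27.0, 31.0 and 26.9 in imiquimod cords, against 30.9, 31.7 and 31.2 in vehicle cords, with imiquimod replicate 2 at the level of the vehicle cords. The 10 tested Gi-coupled receptors had a median of -0.0055 with 1 called higher (Htr1a), the 6 Gs-coupled ones a median of 0.048 with 0 called by limma or voom and 0 at an unadjusted p under 0.05, and the 7 channel subunits a median of -0.058 with 1 called higher (Htr3a). By transmitter, the family medians were -0.0059 for 12 serotonin, -0.019 for 6 adrenergic, 0.089 for 2 dopamine, -0.054 for 4 muscarinic and -0.061 for 6 nicotinic genes. No test of a class or family was made.

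For the 27 members not called, the 95% interval of the fold difference lay within 1.5-fold of equality for 15 and within 2-fold for 22. The median SE of the log2 difference was 0.28 for the 9 tested members under 1 FPKM and 0.127 for the 21 at or above it, with 10 to 1933 fragments per member and library. The 15 members under the minimum stayed at or below 0.425 FPKM in every library, and of these 3 (Drd3, Chrna10 and Chrna9) had at most 3 fragments in any library. With no filter on low values 0 of the 15 were called by limma and 1, Chrna10, had an unadjusted p under 0.05 (log2 difference 0.41, unadjusted p = 0.0341, adjusted p = 0.217). With the minimum lowered to a mean of 0.1 FPKM, 7 of the 15 entered and 0 were called by limma, and none had an unadjusted p under 0.05. Chrna3 and Htr1f reached the minimum through the vehicle group only and Htr5b through the imiquimod group only.

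The genes that make, move and break down the transmitters and carry the receptors' signal were followed in 7 lists of 117 genes. Of these 98 were tested and 15 (15.3%) were called, 7 higher and 8 lower, against 14.1% of all genes. In the list for monoamines 9 of 21 genes were tested and 0 were called by limma or voom, while 3 had an unadjusted p under 0.05. Th, the rate-limiting enzyme of dopamine and noradrenaline synthesis, averaged 1.19 ± 0.463 FPKM in imiquimod and 1.07 ± 0.117 FPKM in vehicle cords. The breakdown enzymes Maoa and Maob averaged 12.4 and 8.79 FPKM in imiquimod cords, against 14.1 and 7.68 FPKM in vehicle cords. Tph2, the serotonin-making enzyme of brainstem neurons, was near the floor with 11, 9 and 12 fragments in imiquimod and 13, 9 and 12 in vehicle libraries.

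Some transcripts of descending monoamine neurons varied between the imiquimod libraries. Dbh, which turns dopamine into noradrenaline, had 43, 1 and 24 fragments in imiquimod replicates 1, 2 and 3, against 2, 4 and 2 in vehicle libraries. Slc6a2, the noradrenaline transporter, had 13, 0 and 11 in imiquimod and 1, 3 and 0 in vehicle libraries. Slc6a4, the serotonin transporter, had 13, 2 and 12 in imiquimod and 0, 6 and 4 in vehicle libraries. Their high libraries were imiquimod replicates 1 and 3, the same ones that were low in Hoxc8. Dbh, Slc6a2 and Slc6a4 stayed under the minimum and were not tested. They belong to a list of 9 monoamine neuron markers. In FPKM, Th and Ddc of that list also had imiquimod replicates 1 and 3 above every other library, and neither was called. Th had 1.62, 0.700 and 1.24 FPKM in imiquimod cords, against 0.932, 1.12 and 1.15 FPKM in vehicle cords. Tph2, Slc6a3, Slc18a2 and Fev did not have this order, which 17.7% of all genes tested shared.

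In the list for acetylcholine all 7 genes were tested, with 1 called lower and 0 higher by limma, against 3 called by voom (Chat, Slc5a7 and Bche). Chat, the enzyme that makes acetylcholine, had 3.69, 5.09 and 3.28 FPKM in imiquimod cords, against 6.27, 5.93 and 6.15 FPKM in vehicle cords (log2 difference -0.62 ± 0.15, limma adjusted p = 0.0422). The groups did not overlap, but the call held in 9 of 18 alternatives. It ended without imiquimod replicate 1 or 3 (adjusted p = 0.107 and 0.0956), without vehicle replicate 1, 2 or 3 (0.135, 0.107 and 0.121), with no filter on low values (0.0794) and with the minimum at a mean of 0.1 FPKM (0.0534), and the difference was -0.26 in imiquimod replicate 2 alone. Chat is also 1 of the 5 cholinergic neuron markers called lower above. Slc5a7, the choline transporter, had 10.6, 15.8 and 8.25 FPKM in imiquimod cords, against 20.5, 19.1 and 18.7 FPKM in vehicle cords (-0.80 ± 0.21, adjusted p = 0.051). It was called without imiquimod replicate 2 (-1.05, adjusted p = 0.00436), and in imiquimod replicate 2 alone it differed by -0.30. Slc18a3, the vesicular acetylcholine transporter, averaged 20.4 ± 4.61 FPKM in imiquimod and 24.7 ± 0.898 FPKM in vehicle cords, and Ache, the enzyme that splits acetylcholine, averaged 51.0 ± 1.31 FPKM in imiquimod and 44.8 ± 2.29 FPKM in vehicle cords. Neither was called (adjusted p = 0.249 and 0.0906). The related receptors outside the naming pattern had 4 of 9 tested and 0 called by limma or voom, with 0 at an unadjusted p under 0.05. Adra2c, a Gi-coupled receptor, averaged 5.18 ± 1.19 FPKM in imiquimod and 5.20 ± 0.696 FPKM in vehicle cords.

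Of 11 tested nicotinic receptor chaperones and Ly6-type modulators 2 were higher and 0 lower. Ly6e, a small surface protein that is also an interferon-induced gene, had 205.6, 168.9 and 190.5 FPKM in imiquimod cords, against 29.9, 40.8 and 35.4 FPKM in vehicle cords (log2 difference 2.42 ± 0.13, limma adjusted p = 0.000343), and it was called in all 18 alternatives. Lypd6b, a modulator of nicotinic channels, averaged 18.3 ± 1.03 FPKM in imiquimod and 14.1 ± 0.762 FPKM in vehicle cords (0.37 ± 0.07, adjusted p = 0.0177). Without vehicle replicate 1 or 3 the call on Lypd6b ended (adjusted p = 0.0847 and 0.0752, between 0.00807 and 0.0932 over its alternatives). After the trend with length and GC was removed its difference was 0.24 (adjusted p = 0.0929).

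Of 17 G protein subunits 1 was higher and 2 were lower by limma. Voom called 4, with Gnai1 in addition, and voom with quality weights called the same 3 as limma. Gnai2, the Gi subunit that is abundant in immune cells and vessels, averaged 88.6 ± 5.26 FPKM in imiquimod and 68.3 ± 3.75 FPKM in vehicle cords (log2 difference 0.37 ± 0.07, limma adjusted p = 0.0193). Gng7, a gamma subunit found with Gnal, averaged 8.90 ± 0.475 FPKM in imiquimod and 12.6 ± 0.331 FPKM in vehicle cords (-0.50 ± 0.07, adjusted p = 0.00522), and Gnal, the stimulatory subunit of striatal and olfactory neurons, averaged 21.8 ± 2.99 FPKM in imiquimod and 28.2 ± 0.935 FPKM in vehicle cords (-0.38 ± 0.10, adjusted p = 0.0481). The call on Gnai2 ended without imiquimod replicate 3 (adjusted p = 0.0533) and without vehicle replicate 1 or 2 (0.0964 and 0.0818), and after the trend with length and GC was removed its difference was 0.23 (adjusted p = 0.054). That on Gnal ended without imiquimod replicate 1 or 3 (0.104 and 0.128) and without vehicle replicate 1, 2 or 3 (0.148, 0.148 and 0.114), with no filter on low values (0.0843), with the minimum at a mean of 0.1 FPKM (0.0585) and in TPM (0.0799). With imiquimod replicate 2 as the only treated library the differences were 0.28 for Gnai2, -0.45 for Gng7 and -0.16 for Gnal, and none was called. In the same libraries 5 of 12 microglia markers were higher and 1 lower, with sums of 557.7 to 689.2 FPKM in imiquimod and 250.7 to 316.2 FPKM in vehicle cords, and 6 of 9 endothelial markers were higher and 1 lower, with sums of 227.4 to 255.4 FPKM in imiquimod and 119.3 to 135 FPKM in vehicle cords. Of blood-borne cells, 5 of 7 tested T and NK cell markers were higher and 0 lower, with sums of 26.8 to 52.3 FPKM in imiquimod and 5.14 to 6.90 FPKM in vehicle cords. Of 5 tested monocyte markers 4 were higher and 0 lower, with sums of 22.1 to 79.3 FPKM in imiquimod and 2.00 to 9.81 FPKM in vehicle cords. The part of these cells in the Gnai2 difference was not tested.

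Of 32 second messenger enzymes and channels 1 was higher and 5 were lower by limma, with a median log2 difference of -0.14. Voom called 9, with Adcy5, Kcnq5 and Plcb2 in addition, and voom with quality weights called 10, with Prkaca as well. By limma Adcy5 differed by -0.28 (adjusted p = 0.0594). Kcnq5 had 290, 354 and 413 fragments in imiquimod and 200, 189 and 253 in vehicle libraries. Adcy4, an adenylyl cyclase known from vessels, averaged 2.63 ± 0.426 FPKM in imiquimod and 1.26 ± 0.206 FPKM in vehicle cords (1.01 ± 0.17, limma adjusted p = 0.0126). The calmodulin-stimulated neuronal cyclase Adcy1 had 8.04, 13.9 and 12.1 FPKM in imiquimod cords, against 20.8, 21.4 and 23.0 FPKM in vehicle cords (-0.97 ± 0.19, adjusted p = 0.0193). Ppp1r1b, the phosphatase inhibitor DARPP-32 that acts downstream of dopamine receptors, had 14.9, 13.2 and 14.9 FPKM in imiquimod cords, against 23.0, 24.7 and 22.2 FPKM in vehicle cords (-0.70 ± 0.08, adjusted p = 0.00306), and it was called in all 18 alternatives. Plcb1, 1 of the phospholipases that Gq activates, averaged 5.10 ± 0.417 FPKM in imiquimod and 6.67 ± 0.225 FPKM in vehicle cords (-0.38 ± 0.08, adjusted p = 0.0261). Its relative Plcb2 averaged 0.869 ± 0.138 FPKM in imiquimod and 0.402 ± 0.122 FPKM in vehicle cords (0.97 ± 0.28, limma adjusted p = 0.0611). Plcb2 was called by both voom fits. Plcb3 differed by 0.19, and Plcb4 had at most 9.88 FPKM in imiquimod and at least 10.4 FPKM in vehicle cords, neither of them called. The cyclase Adcy2 fell by 0.44 and the protein kinase A subunit Prkacb by 0.27 on the log2 scale (adjusted p = 0.0321 and 0.0365). Leaving out vehicle replicate 1, 2 or 3 ended the calls on Adcy1 (adjusted p = 0.0661, 0.0639 and 0.0734), Adcy2 (0.0856, 0.0926 and 0.111), Plcb1 (0.09, 0.0823 and 0.0986) and Prkacb (0.14, 0.117 and 0.12). Leaving out imiquimod replicate 3 also ended those on Adcy2 (0.0779), Plcb1 (0.0692) and Prkacb (0.0846), and leaving out imiquimod replicate 1 those on Adcy2 (0.0529) and Prkacb (0.0673). In TPM the calls on Adcy2, Plcb1 and Prkacb ended (0.062, 0.0563 and 0.0524), as did those on Adcy2 and Prkacb with no filter on low values (0.0568 and 0.0603) and that on Prkacb after the trend with length and GC was removed (0.0646). With imiquimod replicate 2 as the only treated library Adcy4 differed by 0.74, Adcy1 by -0.64, Adcy2 by -0.28, Plcb1 by -0.27 and Prkacb by -0.17, none of them called. Beside these genes, 6 of 9 endothelial markers were higher and 1 lower, as given above. Of 12 astrocyte markers 1 was higher and 5 were lower, with sums of 1449 to 1751 FPKM in imiquimod and 1867 to 1942 FPKM in vehicle cords. Of 10 oligodendrocyte precursor markers 0 were higher and 3 lower, with sums of 208.1 to 254.4 FPKM in imiquimod and 267.7 to 285.8 FPKM in vehicle cords. Of 10 oligodendrocyte markers 0 were higher and 2 lower, with sums of 5847 to 7489 FPKM in imiquimod and 8534 to 9146 FPKM in vehicle cords. The part of these cell types in the differences was not tested.

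Of 18 tested desensitisation and adaptor genes 3 were higher and 0 lower by limma. Voom called 4, with S100a10 in addition, with or without quality weights. Arrb2, a beta-arrestin that uncouples activated receptors, averaged 19.9 ± 2.12 FPKM in imiquimod and 13.9 ± 0.515 FPKM in vehicle cords (log2 difference 0.51 ± 0.09, limma adjusted p = 0.0131). Rgs2, which shortens Gq signals, averaged 15.5 ± 1.45 FPKM in imiquimod and 11.2 ± 0.481 FPKM in vehicle cords (0.46 ± 0.08, adjusted p = 0.0147), and the receptor kinase Grk6, common in immune cells, averaged 11.7 ± 0.593 FPKM in imiquimod and 9.36 ± 0.26 FPKM in vehicle cords (0.31 ± 0.07, adjusted p = 0.0248). The call on Arrb2 ended without vehicle replicate 2 or 3 (adjusted p = 0.0529 and 0.0571) and that on Rgs2 without vehicle replicate 1 or 2 (0.0674 and 0.0635). That on Grk6 ended without imiquimod replicate 1 or 3 (0.0503 and 0.069) and without vehicle replicate 1, 2 or 3 (0.104, 0.0974 and 0.0719). After the trend with length and GC was removed the difference was 0.20 for Grk6 (adjusted p = 0.0655) and 0.33 for Arrb2 (0.0242). With imiquimod replicate 2 as the only treated library the differences were 0.35 for Arrb2, 0.37 for Rgs2 and 0.24 for Grk6, none of them called. The part in these differences of microglia, endothelium, T and NK cells and monocytes, whose marker counts are given with Gnai2, was not tested.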

How the data were processed

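The authors deposited FPKM values, 1 for each gene in each library, which correct fragments for exon length and library size. HISAT2 2.0.5, featureCounts 1.5.0-p3, DESeq2 1.16.1 and mm10 are named in the submitters' processing notes, without roles. The strand setting is not given in the sources used here. FPKM times GENCODE M21 exon length gave whole fragments (97.4% to 97.6% of values under 1000 fragments, within 0.05), so fragments could be recovered. Symbols matched 54409 of 54532 identifiers and M21 lengths 54495. Each library is 1 mouse.

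Differences were tested with limma 3.58.1 (R 4.3.3), trend option, on log2(FPKM + 0.1), which understates changes of low genes. Genes entered at a mean of 0.5 FPKM in either group, and p-values were adjusted by Benjamini-Hochberg over 16513 genes, two-sided, with a threshold of 0.05. The fit was run on simulated data in which all libraries had the same spread and all changes were larger than those of the called members. That run cannot show how the fit performs at differences of their size or with libraries of unequal quality. The 17 alternatives planned and 1 added after the data were seen changed the pseudocount, filter, scaling (TPM, median-centred), test (voom on recovered fragments, with or without quality weights), length and GC trend, replicate block or libraries. Other steps ran in Python 3.11.15 (SciPy 1.17.1, pandas 2.3.3, NumPy 2.4.6; plots with matplotlib 3.10.9). Intervals of count ratios are exact 95% intervals and cover counting error only.

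The members, the marker lists and the 7 pathway lists were chosen with earlier results of these data known. By rule, members called in any fit and the highest and lowest of each family are given with every library, other tested members with group means, and members under the minimum with ranges or fragments. Of pathway genes, up to 5 called per list with the smallest p and a set of transmitter genes are given. A few genes, 1 adrenergic receptor among them, count in the totals but are not reported here. Prkacb, the sixth called gene of its list, was named after its values were seen, as were the Hox genes. The same holds for Ddc, Gnai1, Plcb2, Plcb3, Plcb4, Adcy5, Kcnq5, Prkaca and S100a10. Gapdh stood at 26.4 FPKM in imiquimod replicate 3 and at 1.56 to 2.15 FPKM in the other libraries.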

Additional observations from a re-analysis of the deposited data

How the results depend on the processing

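The count of 3 members called stayed at 3 under both other pseudocounts, both other minimums on the mean level, median-centring, TPM and both voom fits. It was 1 with no filter on low values (Htr1a), 1 after the length and GC trend was removed (Htr1a) and 0 to 4 when 1 library was left out. Without imiquimod replicate 3 and without vehicle replicate 1 or 2 limma called 0 members, with 5, 3 and 4 at an unadjusted p under 0.05. In imiquimod replicate 2 alone, where that library is assumed to vary like the vehicle ones, limma called 0 members (5 at an unadjusted p under 0.05), 260 of all genes and 2 pathway genes. Leaving out 1 library gave 847 to 2986 of all genes against 2326, and 5 to 22 pathway genes against 15. All genes called split into 1444 higher and 882 lower, 1255 and 1569 after the length and GC trend was removed, and 1146 and 1022 after median-centring.

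Deviations from the group means showed no pairing by the replicate numbers in the labels, with correlations of 0.0186, -0.0970 and -0.0331 between same-numbered libraries. The highest value for imiquimod replicate 1 was with vehicle replicate 3, for replicate 2 with vehicle replicate 1 and for replicate 3 with vehicle replicate 2. Such correlations cannot show whether samples were handled in pairs. With the replicate block 1 member was called (Htr3a), 1330 of all genes and 9 pathway genes. The block ended the calls on Htr1a and Htr2c (limma adjusted p = 0.0633 and 0.104). It also ended those on Chat (0.0706), Gnai2 (0.0561), Gnal (0.0602), Plcb1 (0.0636), Prkacb (0.0936) and Grk6 (0.0611).

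Of 538 values of members under alternatives, 472 kept direction and side of the threshold, 22 lost and 1 gained the call and 43 turned in sign, none of a called member. Of 414 values of 23 of the pathway genes named above, the numbers were 325, 74, 5 and 10. The cause was not tested. After the length and GC trend was removed, the log2 difference was -0.054 for Adra1b, -0.023 for Drd2, -0.059 for Chrm4, -0.19 for Chrnb1, -0.061 for Htr6, -0.11 for Htr1d, -0.0065 for Htr4 and -0.11 for Th. Median-centring gave -0.0074 for Chrm3, -0.040 for Chrnb1 and -0.043 for Htr4. Voom with quality weights gave 0.025 for Chrna7, 0.068 for Chrna3, 0.073 for Htr2a and -0.13 for Th. Drd5 was 0.0029 with a pseudocount of 1 and 0.0093 in TPM. Imiquimod replicate 2 alone gave 0.0057 for Adra1d, 0.10 for Drd5, 0.15 for Chrm2, -0.12 for Chrm4, 0.13 for Chrna7, -0.075 for Chrnb1, 0.26 for Chrna3, 0.047 for Htr7, 0.32 for Htr2a, 0.082 for Htr1f, -0.54 for Th and 0.0025 for Slc18a3. Leaving out 1 library gave -0.13 to 0.18 for Drd5, -0.0042 to 0.11 for Chrm3, -0.13 to 0.24 for Chrm4, -0.15 to 0.086 for Chrna7, -0.26 to 0.24 for Chrnb1, -0.22 to 0.038 for Chrna3, -0.091 to 0.034 for Htr7, -0.19 to 0.087 for Htr2a, -0.021 to 0.23 for Htr6, -0.028 to 0.17 for Htr1d, -0.074 to 0.11 for Htr4, -0.16 to 0.39 for Th and -0.20 to 0.089 for Adra2c. Voom's quality weights were 0.344, 1 and 0.522 for the imiquimod libraries and 2.28, 1.69 and 1.45 for the vehicle libraries.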

Other observations

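Ratios between receptors within a library do not depend on its scaling, and several separated the groups. They were chosen after the values had been seen, and several hold a gene already called or not overlapping, so their separation is not a test. How often pairs of genes separate the groups was not counted, while 37.9% of all single genes tested did not overlap. An exact permutation p of 0.1 is the smallest that 3 against 3 allows. Htr1a stood at 1.75, 1.79 and 1.91 times the FPKM of Htr1b in imiquimod cords, against 1.23, 1.22 and 1.47 times in vehicle cords (two-sided exact p = 0.1). Htr2c stood at 0.896, 0.888 and 0.968 times Htr7 in imiquimod cords, against 1.05, 1.05 and 1.17 times in vehicle cords (two-sided exact p = 0.1), so that Htr7 exceeded Htr2c in all imiquimod and in 0 vehicle libraries. Relative to Htr2a, Htr2c stood at 2.71, 1.97 and 2.67 times in imiquimod cords, against 2.88, 2.83 and 3.06 times in vehicle cords (two-sided exact p = 0.1). Chrna4, the alpha partner of the common brain nicotinic receptor, stood at 1.73, 2.06 and 1.79 times Chrnb2 in imiquimod cords, against 1.52, 1.60 and 1.48 times in vehicle cords (two-sided exact p = 0.1), although neither subunit was called. Adra1b stood at 8.73, 4.22 and 5.10 times Adra1a in imiquimod cords, against 2.88, 3.54 and 3.18 times in vehicle cords (two-sided exact p = 0.1), with imiquimod replicate 2 nearest to the vehicle cords. The ratio of Chrnb4 to Chrna3, neighbouring subunits, was 0.236, 0.0943 and 0.388 in imiquimod cords and 0.435, 0.442 and 0.331 in vehicle cords (two-sided exact p = 0.2).

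Among the 30 tested members, imiquimod replicate 2 was the highest imiquimod library for 15, replicate 1 for 6 and replicate 3 for 9. Replicate 1 was the lowest for 14, replicate 2 for 6 and replicate 3 for 10. The summed FPKM of all 45 members was 108.4, 119.6 and 111.4 in imiquimod cords, against 113.3, 114.5 and 114.5 in vehicle cords.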
